A study of Mus musculus with 672 samples.

Results

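The 40 genes described here are interferon response genes, taken by symbol from the count table of single lymphoid progenitors of mouse bone marrow. The table lists 46078 genes, each of the 40 symbols matched 1 Ensembl identifier, and all 40 passed the filter on low counts that left 19903 genes for testing. The study asked what loss of Mbd3, a subunit of the NuRD chromatin remodelling complex, does in early lymphoid progenitors. Each cell was sorted into its own well and sequenced with a full-length protocol, so the values are reads and not molecules. The null group is Mbd3del/del, 2 mice (18217 and 18219), and the control group is Mbd3flox/flox, 2 mice (18218 and 18220). All 4 mice were of strain C57BL6/129Ola, were aged 7 weeks and gave marrow from femurs and tibiae. The sources used here do not give the Cre line that made the deletion, nor the deleted part of the gene. Each mouse gave cells of 3 gates, all sorted as Lin- Sca-1+ c-Kit+ Flt3hi B220-. Lymphoid-primed multipotent progenitors (LMPPs) were IL-7Ra-, all-lymphoid progenitors (ALPs) were IL-7Ra+ Ly6D-, while the B cell-biased lymphoid progenitors, or BLPs, carried both IL-7Ra and Ly6D. Reads of the kept cells were summed per mouse and gate into 12 libraries, and levels are CPM, the counts per 1e6 reads scaled by edgeR's TMM factors. Where a pair of values is given, it runs mouse 18217 then 18219 for null and 18218 then 18220 for control.

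Cells carry a receptor for type I interferons that works through the kinases Jak1 and Tyk2. These phosphorylate Stat2, which joins Irf9 in a complex that binds a short element in the promoters of target genes, the interferon-stimulated response element. The induced proteins sense viral nucleic acid, block viral replication, attach the ubiquitin-like protein Isg15 to other proteins and load antigen for display. In bone marrow, stem and multipotent cells are known to keep many of these genes active at a low level without infection, and interferon itself drives stem cells into cycle.

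The element named above was looked for in the promoters of the members, because the members are defined by a shared response. The search was for a repeat of the letters GAAA with any 2 bases between the copies, on either strand, in RefSeq windows of build GRCm38.p6 that run from 250 bases before to 50 bases after a gene's start. Windows were found for 32 members. Of these, 14 (43.8%) held a match, against 3.99% of all 27025 genes with a window. The 14 were Bst2, Ddx58, Eif2ak2, Gbp2, Gbp3, Ifih1, Ifit1, Ifit3, Isg15, Oas1a, Oas3, Rsad2, Stat2 and Trim30a. The element of the other interferon pathway, TTC and GAA with any 3 bases between them, which reads the same on both strands, was in 7 of the 32 (21.9%), against 9.55% of all genes. Overlapping copies of either motif were allowed to count. The stretches below are those of 6 members whose values are described further on, each written 5′ to 3′ along its gene and ending at or before the gene's start, with the matches in capitals.
Isg15 (chr4:156200850-156200921, minus strand): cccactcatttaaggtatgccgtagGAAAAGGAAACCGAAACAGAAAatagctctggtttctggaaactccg
Ifit1 (chr19:34640760-34640838, plus strand): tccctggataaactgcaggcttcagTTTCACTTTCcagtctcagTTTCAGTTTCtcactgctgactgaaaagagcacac
Ifit3 (chr19:34583348-34583441, plus strand): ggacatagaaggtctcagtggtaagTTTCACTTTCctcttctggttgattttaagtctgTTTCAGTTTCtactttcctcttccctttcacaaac
Rsad2 (chr12:26456538-26456597, minus strand): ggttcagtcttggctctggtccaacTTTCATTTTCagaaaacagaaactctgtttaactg
Oas1a (chr5:120907526-120907570, minus strand): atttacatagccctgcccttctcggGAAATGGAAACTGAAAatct
Stat2 (chr10:128270251-128270310, plus strand): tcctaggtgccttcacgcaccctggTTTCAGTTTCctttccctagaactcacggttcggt
Isg15 held 3 overlapping copies read along the gene and Oas1a held 2, while Ifit1 and Ifit3 held 2 separate copies each and Rsad2 and Stat2 1 each, all on the opposite strand. A match is a description of these letters and not evidence that a factor binds there. Of the members with a match, 14 of 14 had a null over control log2 fold change below 0 in LMPPs, with a median of -1.06. Of the 18 members whose window held none, 17 did, with a median of -0.76. The difference between the medians was not tested.

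Mbd3 checks the labels. It had 0.189 and 24.7 CPM in null LMPPs, against 48.1 and 137 CPM in control LMPPs. In ALPs it had 2.88 and 0.352 CPM in null cells and 99.1 and 102 CPM in control cells, and in BLPs 0.337 and 0.569 CPM in null cells and 82.4 and 191 CPM in control cells. The null LMPP library of mouse 18219 stands out, and 1 of its 47 kept cells held 10 or more Mbd3 reads. Of 672 sorted cells 561 were kept, and 86 of the 111 left out were ALPs of mice 18219 and 18220. The 12 libraries held 53741264 to 137497554 gene counts. The median cell held fewer nuclear gene counts in each null library (1004760 to 1285440) than in any control library (1586210 to 2340590), so shares of cells below are at 50000 counts drawn per cell. In a sum over cells, fewer expressing cells and less RNA per cell cannot be told apart.

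In control mice 33 of the 40 members had their highest mean level in LMPPs, 5 in ALPs and 2 in BLPs. In null mice 14 members were highest in LMPPs, 16 in ALPs and 10 in BLPs. These are orders of means of 2 mice. In LMPPs of control mouse 18218 the 3 cells with most member reads held 40.5% of them. The difference between the LMPP and ALP gates in control mice was not the same in the 2 mice, as described further on for the step to ALPs. Compared per kilobase of exon, the members with the highest level over the 12 libraries were Psmb8, Bst2, Psmb9, Rtp4, Tap1, Ifi35, Trim30a and Irf9. Psmb8, a catalytic subunit of the immunoproteasome, averaged 184, 249 and 215 CPM per kilobase in control LMPPs, ALPs and BLPs. Its partner subunit Psmb9 averaged 103, 91.4 and 111 CPM per kilobase in the same order. Tap1, a peptide transporter of antigen processing, averaged 52.1, 64.9 and 70.0 CPM per kilobase. These 3 antigen processing genes, with Sp100, Gbp3, Trim25 and Parp9, were the members whose control mean was not highest in LMPPs.

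Bst2, which tethers budding virus to the cell surface, averaged 193, 158 and 187 CPM per kilobase in control LMPPs, ALPs and BLPs. Rtp4, a receptor transport protein induced by interferon, averaged 167, 57.1 and 31.6 CPM per kilobase and stepped down along the gates. Ifi35 averaged 60.7, 46.5 and 49.1 CPM per kilobase, and Trim30a, a member of the tripartite motif family, 39.9, 36.7 and 28.5 CPM per kilobase. Irf9, the DNA-binding partner of Stat2, averaged 55.3, 29.5 and 22.5 CPM per kilobase. At the other end, Zbp1, Herc6 and Ifih1 averaged 2.83, 3.09 and 3.53 CPM per kilobase over all 12 libraries. Neighbours in this order were not tested against each other, and with 2 mice per group their ranges often overlap. Counts from near-identical copies (Ifit3 with Ifit3b, Oas1a with its cluster, Trim30a with its family) are uncertain, and 16 members overlap another annotated gene, whose reads cannot be told apart without strand.

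The comparison of null with control LMPPs asks whether the baseline of these genes depends on Mbd3. Of the 40 members, 38 had a log2 fold change of null over control below 0, with a median of -0.92. Of all 19903 genes tested, 50.9% were below 0, with a median of -0.02. In 28 of 40 members both null mice lay below both control mice, against 17.8% of all genes. In 0 members did both null mice lie above, against 16.2% of all genes. No member passed edgeR's quasi-likelihood test with Benjamini-Hochberg adjustment over all genes at 0.05 (0 of 40). The same test called 0% of all genes. At an unadjusted p under 0.05, 11 members were lower and 0 higher, against 3.62% of all genes lower. That count of 11 was not stable. Without the 3 cells of each library with the highest summed member level it was 2, beside 6.59% of all genes in either direction. The count also moved when any 1 mouse was left out. Those fits leave 1 mouse in a genotype, so only their effect sizes are given, further on. DESeq2, run as an alternative, called 2 members, Mx1 and Irf9, and 2.88% of all genes.

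**Figure D1:**
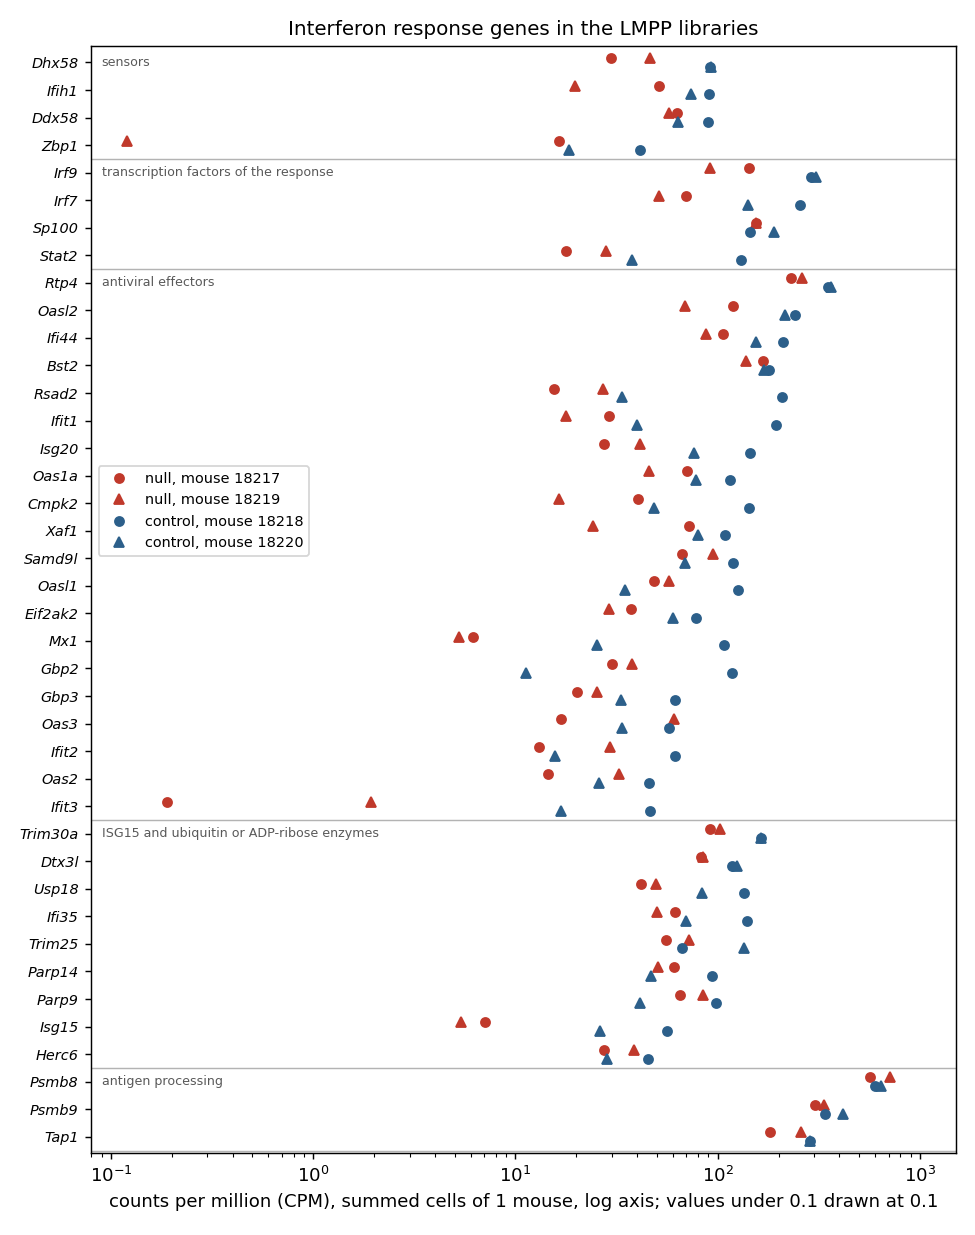
Level of each of the 40 members in the 4 LMPP libraries, in CPM on a log axis, with null mice in red and control mice in blue (circle and triangle mark the 2 mice of a genotype). In 28 of 40 members both red points lie left of both blue points, and the others, such as Psmb8 and Parp9, show no such order.

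Of the 4 transcription factors and nuclear regulators of the response, 3 had both null mice below both control mice in LMPPs. Irf9 had 142 and 91.9 CPM in null LMPPs, against 289 and 306 CPM in control LMPPs. Its log2 fold change was -1.35 ± 0.27 (SE; edgeR adjusted p = 0.50, 2 mice per group), the smallest p of the 40. The 2 control mice were close together and the null mice were well below them. Irf7, which amplifies interferon transcription, had 70.1 and 51.4 CPM in null LMPPs, against 255 and 142 CPM in control LMPPs. Stat2, the partner of Irf9 in the activating complex, had 17.9 and 28.2 CPM in null LMPPs, against 131 and 37.9 CPM in control LMPPs. For these the log2 fold changes were -1.71 ± 0.68 and -1.88 ± 0.69 (SE; edgeR adjusted p = 0.74 and 0.73). In both, the groups did not overlap, but the control mice differed from each other, and for Stat2 mouse 18218 was far above mouse 18220. Sp100, a component of nuclear bodies, had 155 and 154 CPM in null LMPPs, against 145 and 190.1 CPM in control LMPPs, and here the groups overlapped.

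The sensors of viral nucleic acid had 4 of 4 log2 fold changes below 0 in LMPPs, and in all 4 the mice did not overlap. Dhx58, a regulator of the RNA sensors, had 29.6 and 46.1 CPM in null LMPPs, against 92.2 and 93.2 CPM in control LMPPs. Its log2 fold change was -1.29 ± 0.44 (SE; edgeR adjusted p = 0.70). Both null mice lay below a tight control pair. Ifih1 and Ddx58, which detect viral RNA, had log2 fold changes of -1.20 ± 1.27 and -0.34 ± 0.53 (SE). Ddx58 had 63.0 and 57.6 CPM in null LMPPs, against 89.3 and 63.7 CPM in control LMPPs, so its groups barely stood apart. By plain library size they overlapped, with 65.0 CPM in null mouse 18217 and 64.0 CPM in control mouse 18220. Zbp1, a sensor of Z-form nucleic acid, had 16.5 and 0.120 CPM in null LMPPs, against 41.4 and 18.3 CPM in control LMPPs, and the higher null mouse came close to the lower control mouse.

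The antiviral effectors were the most numerous role, and 20 of 20 had a log2 fold change below 0 in null LMPPs, with a median of -0.95. Mx1, a GTPase that traps viral components, had 6.17 and 5.26 CPM in null LMPPs, against 108 and 25.3 CPM in control LMPPs. Its log2 fold change was -3.54 ± 0.93 (SE; edgeR adjusted p = 0.63). Both null mice were far below both control mice, and the control mice themselves differed widely. Oasl2, of the oligoadenylate synthetase family, had 119 and 69.2 CPM in null LMPPs, against 242 and 215 CPM in control LMPPs, a log2 fold change of -1.28 ± 0.46 (SE). Isg20, an exonuclease that degrades viral RNA, had 27.4 and 41.1 CPM in null LMPPs, against 145 and 76.0 CPM in control LMPPs. Eif2ak2, the kinase that stops translation on double-stranded RNA, had 37.5 and 28.9 CPM in null LMPPs, against 78.0 and 60.3 CPM in control LMPPs. Ifi44 had 107 and 87.1 CPM in null LMPPs, against 210.4 and 155 CPM in control LMPPs. In these 4 the groups stood apart in the same direction, with log2 fold changes from -1.69 for Isg20 to -0.91 for Ifi44 and adjusted p-values of 0.72 to 0.74 by edgeR.

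Some effectors stood far higher in control mouse 18218 than in any other LMPP library. Rsad2, which makes a nucleotide that stops viral polymerases, had 15.5 and 27.2 CPM in null LMPPs, against 208 and 33.5 CPM in control LMPPs. Ifit1, which binds foreign capped RNA, had 28.9 and 17.8 CPM in null LMPPs, against 194 and 39.8 CPM in control LMPPs. Ifit3, its partner, had 0.189 and 1.94 CPM in null LMPPs, against 46.2 and 16.8 CPM in control LMPPs. In all 3 the mice did not overlap, and control mouse 18220 was much nearer to the null mice than mouse 18218 was for Rsad2 and Ifit1. Gbp2, Ifit2, Oas2, Oas3, Oasl1 and Samd9l had overlapping mice in LMPPs. Bst2 and Rtp4 were the effectors with the highest level per kilobase. Bst2 had 167 and 138 CPM in null LMPPs, against 179.7 and 169 CPM in control LMPPs, and Rtp4 had 232 and 261 CPM in null LMPPs, against 351 and 362 CPM in control LMPPs. Neither overlapped between genotypes, with log2 fold changes of -0.19 ± 0.28 and -0.53 ± 0.69 (SE).

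Among the genes of Isg15 conjugation and related enzymes, 8 of 9 had a log2 fold change below 0. Isg15, the ubiquitin-like protein itself, had 7.04 and 5.40 CPM in null LMPPs, against 56.1 and 26.3 CPM in control LMPPs, a log2 fold change of -2.73 ± 1.06 (SE; edgeR adjusted p = 0.73). Trim30a had 92.2 and 103 CPM in null LMPPs, against 164 and 164 CPM in control LMPPs. Dtx3l, a ubiquitin ligase, had 82.7 and 84.7 CPM in null LMPPs, against 117 and 125 CPM in control LMPPs. Both had groups that did not overlap, with smaller log2 fold changes of -0.75 ± 0.30 and -0.53 ± 0.24 (SE). Parp9, the partner of Dtx3l, lies head to head with it on chromosome 16 and overlaps it. Parp9 had 64.8 and 84.7 CPM in null LMPPs, against 98.4 and 41.5 CPM in control LMPPs, and its groups overlapped. Usp18, which removes Isg15 and damps receptor signalling, had 41.6 and 49.5 CPM in null LMPPs, against 135 and 83.9 CPM in control LMPPs. Ifi35 had 61.2 and 49.9 CPM in null LMPPs, against 139.7 and 70.0 CPM in control LMPPs, and neither of these overlapped. Herc6, Trim25 and Parp14 had overlapping mice and log2 fold changes of -0.16, -0.66 and -0.33.

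The 3 antigen processing members differed less between genotypes in LMPPs. Psmb8 had 565 and 711 CPM in null LMPPs, against 597 and 645 CPM in control LMPPs, and its log2 fold change was 0.04 ± 0.19 (SE). Psmb9 had 302 and 337 CPM in null LMPPs, against 339.6 and 416 CPM in control LMPPs, and Tap1 had 181 and 258 CPM in null LMPPs, against 286 and 285 CPM in control LMPPs. For Psmb9 and Tap1 both null mice lay below both control mice, by less than for most members, with log2 fold changes of -0.24 ± 0.26 and -0.38 ± 0.34 (SE). Without these 3 genes the summed level of the other 37 members was 2172 and 2089.9 CPM in null LMPPs, against 4769.6 and 3228 CPM in control LMPPs. The groups did not overlap in that sum. In ALPs the sum was 2268 and 2112 CPM in null ALPs, against 1786 and 2987 CPM in control ALPs, with overlapping mice, and in BLPs it was 1686 and 2162 CPM in null BLPs, against 1465 and 1642 CPM in control BLPs, with both null mice above both control mice.

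**Figure D2:**
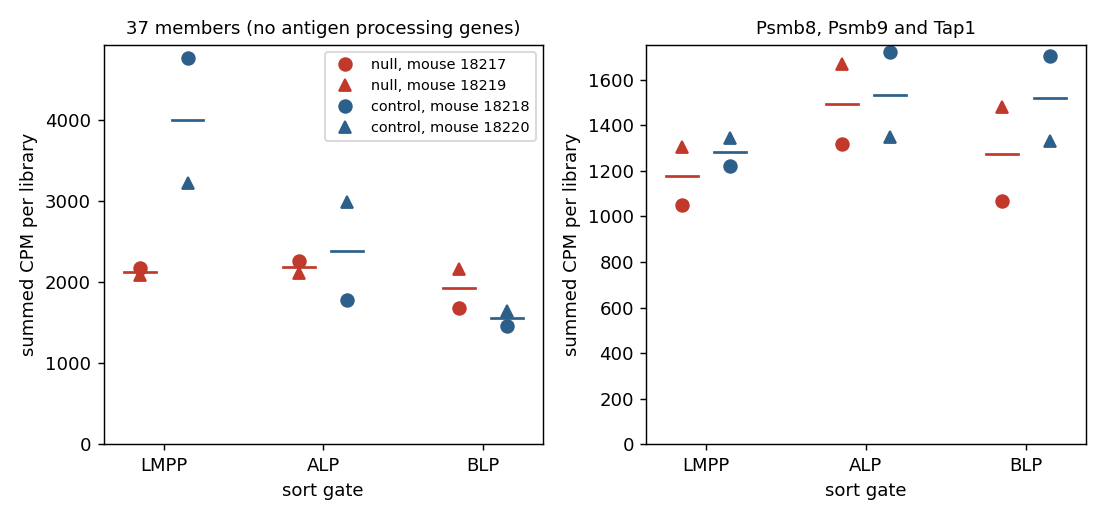
Summed CPM per library of the 37 members outside antigen processing (left) and of Psmb8, Psmb9 and Tap1 (right), by gate, with null in red left of control in blue, 1 point per mouse and a line at the mean of 2 mice. In LMPPs the null points lie below both control points on the left, in ALPs they lie between the control points, and in BLPs they lie above both.

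Whether few cells or 1 mouse carry this level was read from the cells themselves. At 50000 counts drawn from each cell, the median LMPP had a read of 15 and 13 members in null mice, against 18 and 14 in control mice. Cells with 20 or more members made up 4 of 45 null LMPPs of mouse 18217 (8.89%, exact binomial 95% interval 2.48 to 21.2%) and 2 of 47 of mouse 18219 (4.26%, 0.520 to 14.5%). In control LMPPs they were 18 of 47 of mouse 18218 (38.3%, 24.5 to 53.6%) and 12 of 47 of mouse 18220 (25.5%, 13.9 to 40.3%). Both null mice lay below both control mice. By the exact permutation test (two-sided, mice as units) p was 0.33, which is the smallest that 2 mice against 2 allow. The intervals cover counting error only. In ALPs this share was 17.7 and 11.9% in null mice, against 16.2 and 15.0% in control mice. In BLPs it was 8.33 and 11.4% in null mice, against 14.7 and 2.86% in control mice, and in both of these gates the mice overlapped.

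**Figure D3:**
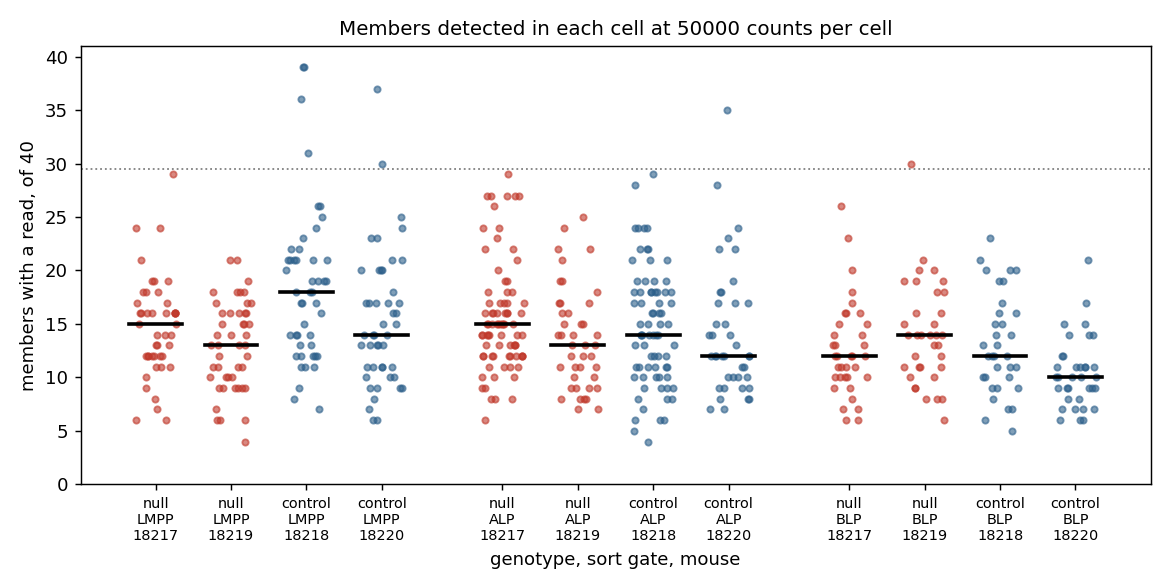
Number of the 40 members with a read in each kept cell at 50000 counts per cell, 1 point per cell, by gate, genotype and mouse, with a bar at the median cell. The dotted line parts cells with 30 or more members, of which 6 are control LMPPs, 1 is a control ALP and 1 is a null BLP.

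Of 561 cells 8 had a read of 30 or more members. Of these 4 were LMPPs of control mouse 18218, 2 were LMPPs of control mouse 18220, 1 was an ALP of control mouse 18220 and 1 a BLP of null mouse 18219. No null LMPP reached that number (0 of 45 and 0 of 47 cells, which allow shares of up to 6.67% and 6.38% at a limit of 3 cells, and of up to 7.87% and 7.55% by the exact binomial interval). In mouse 18218, 3 cells had summed member levels of 48762, 28701 and 21597 CPM, against 8445 CPM in the next cell and 3681 CPM in the median cell of that library. They had a read of 39, 39 and 36 members. The highest LMPP was 11098 CPM in null mouse 18217 and 8496 CPM in null mouse 18219, against 16005 CPM in control mouse 18220. The 3 cells with most member reads held 18.4 and 18.5% of member reads in null LMPPs, against 40.5 and 26.0% in control LMPPs. In the median cell the summed level was 2786 and 2892 CPM in null LMPPs, against 3681 and 3549.9 CPM in control LMPPs, so the median cells stood in the same order as the sums.

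The depth and the sort genes of these 8 cells were read beside the members. Their nuclear counts ran from 1046545 to 3581968 and their mitochondrial shares from 4.09 to 8.11%. Flt3, the cytokine receptor of the sort, ran from 114 to 977 CPM over the 8. Kit was at 448, 0 and 759.9 CPM in cells 10, 6 and 8 of mouse 18218, against 367 CPM in the median LMPP of that mouse, and at 26.8 CPM in cell 37 of mouse 18220, 1.06 CPM in the ALP and 4.50 CPM in the BLP. Ly6a, which encodes Sca-1 and is itself induced by interferon, was at 2528, 3213 and 574 CPM in cells 10, 6 and 8, against 255 CPM in the median LMPP. Markers of other cells were mixed. In cells 10 and 22 of mouse 18218 the 12 monocyte and macrophage genes summed to 593 and 310 CPM. In cells 20 and 37 of mouse 18220 they summed to 706 and 458 CPM. These sums were above the 149.8 and 92.6 CPM of the control LMPP libraries, which pool all kept cells. In cells 6 and 8 of mouse 18218 the 12 genes summed to 112 and 122 CPM, below the 149.8 CPM of that library. In the ALP and the BLP they summed to 109 and 136 CPM. Ms4a6c was the highest of these genes in cells 10, 20 and 37, at 588, 702 and 271 CPM, and Cd68 in cell 22, at 310 CPM. Adgre1 had 0 reads and Csf1r at most 0.277 CPM in all 8. Over the 8, the neutrophil and granulocyte genes summed to 98.6 to 1442 CPM and the T and NK cell genes to 1.88 to 626 CPM. The 10 plasmacytoid dendritic cell genes summed to 541 to 2747 CPM over the 8, and without the member Bst2 to 129 to 2009 CPM. The highest was ALP cell 41 of mouse 18220, while Siglech was at most 1.94 CPM in all 8. The part of these markers in the member levels of the 8 cells was not tested. None of the 8 had a read of any of 21 interferon genes (0 reads). In cell 10 of mouse 18218 Rsad2 was at 6578 CPM, Mx1 at 2274 CPM and Ifit1 at 2169 CPM. In cells 6 and 8 Ifit1 was at 1184 and 1416 CPM and Rsad2 at 1108 and 227 CPM. The median LMPP of that mouse had 0.992 CPM of Ifit1 and 0 CPM of Rsad2 and Mx1.

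Members differed in how many cells carried them. For Mx1, 3 cells held 98.3 and 98.4% of its reads in null LMPPs, against 87.4 and 99.0% in control LMPPs. For Ifit3 it was 64.3 and 98.2% of its reads in null LMPPs, against 99.4 and 97.8% in control LMPPs. Irf9 was spread further, and its 3 largest cells held 28.4 and 31.3% of its reads in null LMPPs, against 43.4 and 44.4% in control LMPPs. Psmb8 was spread furthest of these, with 23.1 and 24.1% of its reads in null LMPPs, against 19.5 and 23.3% in control LMPPs. A read of Mx1 was found in 4.44 and 2.13% of null LMPPs, against 19.1 and 6.38% of control LMPPs. A read of Irf9 was found in 55.6 and 48.9% of null LMPPs, against 59.6 and 66.0% of control LMPPs, and of Oasl2 in 46.7 and 25.5% of null LMPPs, against 68.1 and 40.4% of control LMPPs. The largest difference in such shares was that of Xaf1, an antagonist of an apoptosis inhibitor, with 44.4 and 17.0% of null LMPPs, against 59.6 and 51.1% of control LMPPs. Over the 40 members, 35 had a lower mean share in null LMPPs, with a median difference of -8.24 percentage points, beside 0 over all genes tested. For 17 members both null mice lay below both control mice and for 0 above, against 14.4% of all genes below. By a two-sided exact permutation test no member can go below p = 0.333 with 2 mice against 2. In ALPs 16 of 40 members had a lower mean share in null cells and in BLPs 12 of 40.

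Leaving out the 3 cells with the highest summed level from each of the 12 libraries, a choice made after the data were seen, gave smaller differences. The median log2 fold change in LMPPs was then -0.36, with 31 of 40 members below 0, against -0.92 and 38 of 40 with all kept cells. On the scale of plain library size, both null mice then lay below both control mice in 13 members and above in 1. With all kept cells on that scale they did so in 26 and 0 members. The share of all genes is not given on that scale, so these counts are not read as a result. Irf9 then had 143 and 88.3 CPM in null LMPPs, against 272 and 306 CPM in control LMPPs, with a log2 fold change of -1.33, close to that with all cells. Irf7 had 65.9 and 35.1 CPM in null LMPPs, against 110.2 and 122 CPM in control LMPPs. Ifit1 had 23.5 and 14.4 CPM in null LMPPs, against 85.5 and 12.7 CPM in control LMPPs, and its groups then overlapped. Leaving out 1 mouse at a time, the median ran from -1.26 without control mouse 18220 to -0.63 without control mouse 18218, with 32 to 40 members below 0. The log2 fold change of Stat2 was -0.73 without mouse 18218. With cells thinned to equal counts the median was -0.75 and 34 members were below 0.

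**Figure D4:**
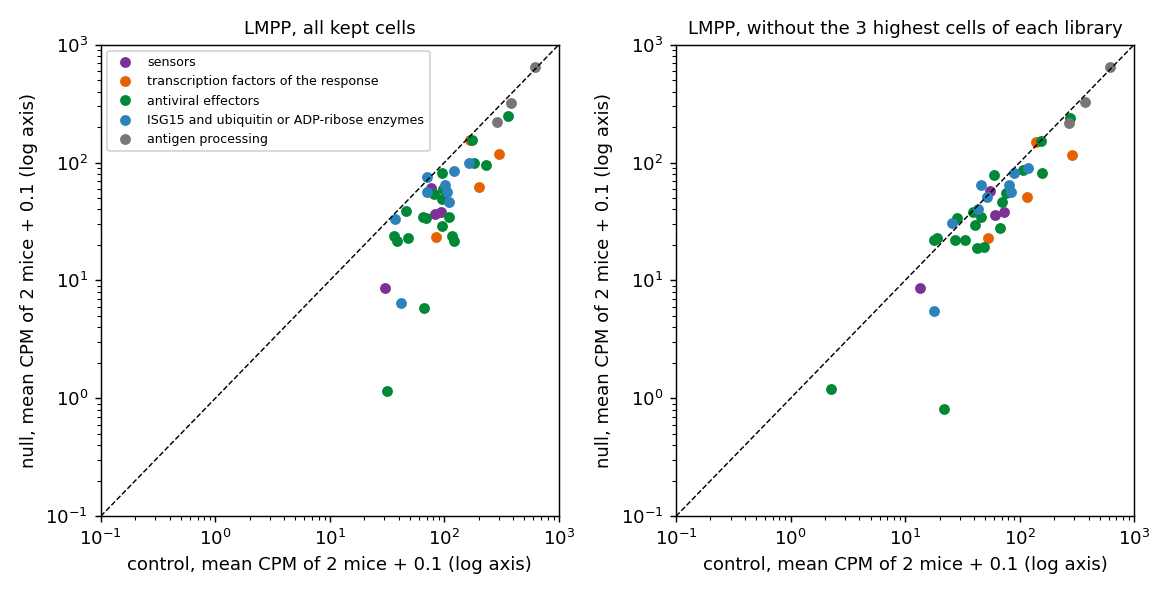
Mean CPM of each member in 2 null mice (vertical) against 2 control mice (horizontal) in LMPPs, by plain library size, both on log axes with 0.1 added, coloured by role, with a dashed line of equality. Left all kept cells, right without the 3 cells of each library with the highest summed member level, where edgeR's log2 fold change is below 0 in 31 of 40 members, against 38 of 40 with all kept cells.

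In ALPs the members showed no common direction. Of 40 members 26 had a log2 fold change of null over control below 0, with a median of -0.11, beside 49.9% and 0.00 over all genes. Both null mice lay below both control mice in 5 members (17% of all genes) and above in 7 (17.1% of all genes). edgeR called 0 members and 0.00502% of all genes, and 1 member had an unadjusted p under 0.05, beside 4.5% of all genes. That member was Oas2, an oligoadenylate synthetase, with 30.9 and 61.1 CPM in null ALPs, against 11.5 and 11.6 CPM in control ALPs and a log2 fold change of 1.99 ± 0.57 (SE; edgeR adjusted p = 1.00). DESeq2 called Oas2 and 1.51% of all genes. Gbp3, a guanylate-binding GTPase, had 25.8 and 21.6 CPM in null ALPs, against 40.1 and 84.1 CPM in control ALPs. Stat2 had 34.1 and 24.6 CPM in null ALPs, against 39.5 and 64.9 CPM in control ALPs. Herc6, the main ligase of Isg15 in the mouse, had 28.4 and 39.8 CPM in null ALPs, against 25.7 and 21.0 CPM in control ALPs, and Xaf1 had 92.4 and 102 CPM in null ALPs, against 61.2 and 78.6 CPM in control ALPs. In these 4 the mice did not overlap, with null lower for Gbp3 and Stat2 and higher for Herc6 and Xaf1. Rsad2, Mx1 and Usp18 were below 0, at -2.26, -1.54 and -0.90, with overlapping mice. Without control mouse 18220, whose library held the cell with 35 members, the median was 0.34 and 10 of 40 members were below 0. Null ALPs also had a lower summed level of plasmacytoid dendritic cell markers (732 and 1073 CPM in null ALPs, against 1572 and 2697 CPM in control ALPs). Bst2 is in that list and among the members. Without it the sum was 624 and 942 CPM in null ALPs, against 1438 and 2546 CPM in control ALPs, and its part in these values was not tested. The neutrophil and granulocyte genes summed to 933 and 819 CPM in null ALPs, against 433 and 217 CPM in control ALPs, and both null mice lay above.

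In BLPs more members had higher than lower values in null cells. Of 40 members 14 were below 0 and 26 above, with a median of 0.25, beside 50.4% below 0 and -0.01 over all genes. Both null mice lay above both control mice in 11 members (16.3% of all genes) and below in 3 (17.1%). edgeR called 0 members and 0.01% of all genes. At an unadjusted p under 0.05, 6 members were higher (4.33% of all genes) and 1 lower, and 8.83% of all genes passed in either direction. Oas2 had 17.1 and 23.9 CPM in null BLPs, against 4.42 and 3.20 CPM in control BLPs, a log2 fold change of 2.43 ± 0.58 (SE; edgeR adjusted p = 0.42). Oas1a had 66.9 and 27.9 CPM in null BLPs, against 15.7 and 9.23 CPM in control BLPs, a log2 fold change of 1.93 ± 0.52 (SE; edgeR adjusted p = 0.47). DESeq2 called both, 2 of 40 members, beside 4.65% of all genes, a share near that of the members.

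Sp100 had 189 and 216 CPM in null BLPs, against 103 and 122 CPM in control BLPs, and Parp14, an ADP-ribosyltransferase, had 64.8 and 68.9 CPM in null BLPs, against 43.8 and 23.6 CPM in control BLPs. Xaf1 had 45.9 and 66.4 CPM in null BLPs, against 33.9 and 24.4 CPM in control BLPs. In these, as in both Oas genes, each null mouse lay above each control mouse. Dtx3l was the other way round, with 52.1 and 73.7 CPM in null BLPs, against 111 and 93.7 CPM in control BLPs, and so was Psmb9, with 296 and 323 CPM in null BLPs, against 471 and 344 CPM in control BLPs. Isg15 and Irf7 had overlapping mice in BLPs. Some effectors were close to 0 in both genotypes here, so their fold changes rest on few reads. Ifit1 had 0.0187 and 0.152 CPM in null BLPs, against 0.674 and 0.220 CPM in control BLPs, and Ifit3 had 0.0187 and 0.208 CPM in null BLPs, against 3.00 and 0.00955 CPM in control BLPs. Without null mouse 18219, whose library held the BLP with 30 members, the median was 0.03 and 20 of 40 members were below 0. Of the summed marker lists, some had higher and some had lower values in null BLPs. The monocyte and macrophage genes summed to 303 and 199 CPM in null BLPs, against 78.2 and 30.8 CPM in control BLPs, with Adgre1, C1qa, C1qc and F13a1 at 0.0191 CPM or less. The neutrophil and granulocyte genes summed to 295 and 353 CPM in null BLPs, against 157 and 68.6 CPM in control BLPs, and the B lineage genes to 3332 and 2799 CPM in null BLPs, against 2513 and 2699 CPM in control BLPs. The T and NK cell genes had 424 and 450 CPM in null BLPs, against 418 and 329 CPM in control BLPs. In all of these lists both null mice lay above both control mice. The stem and multipotent genes had 184 and 453 CPM in null BLPs, against 511 and 466 CPM in control BLPs. The gate genes had 4803 and 3591 CPM in null BLPs, against 5106 and 6211 CPM in control BLPs. In both of the latter lists both null mice lay below. The mice overlapped for the plasmacytoid dendritic cell genes and for the mature B and plasma cell genes. The part of these markers in the values of the members was not tested.

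**Figure D5:**
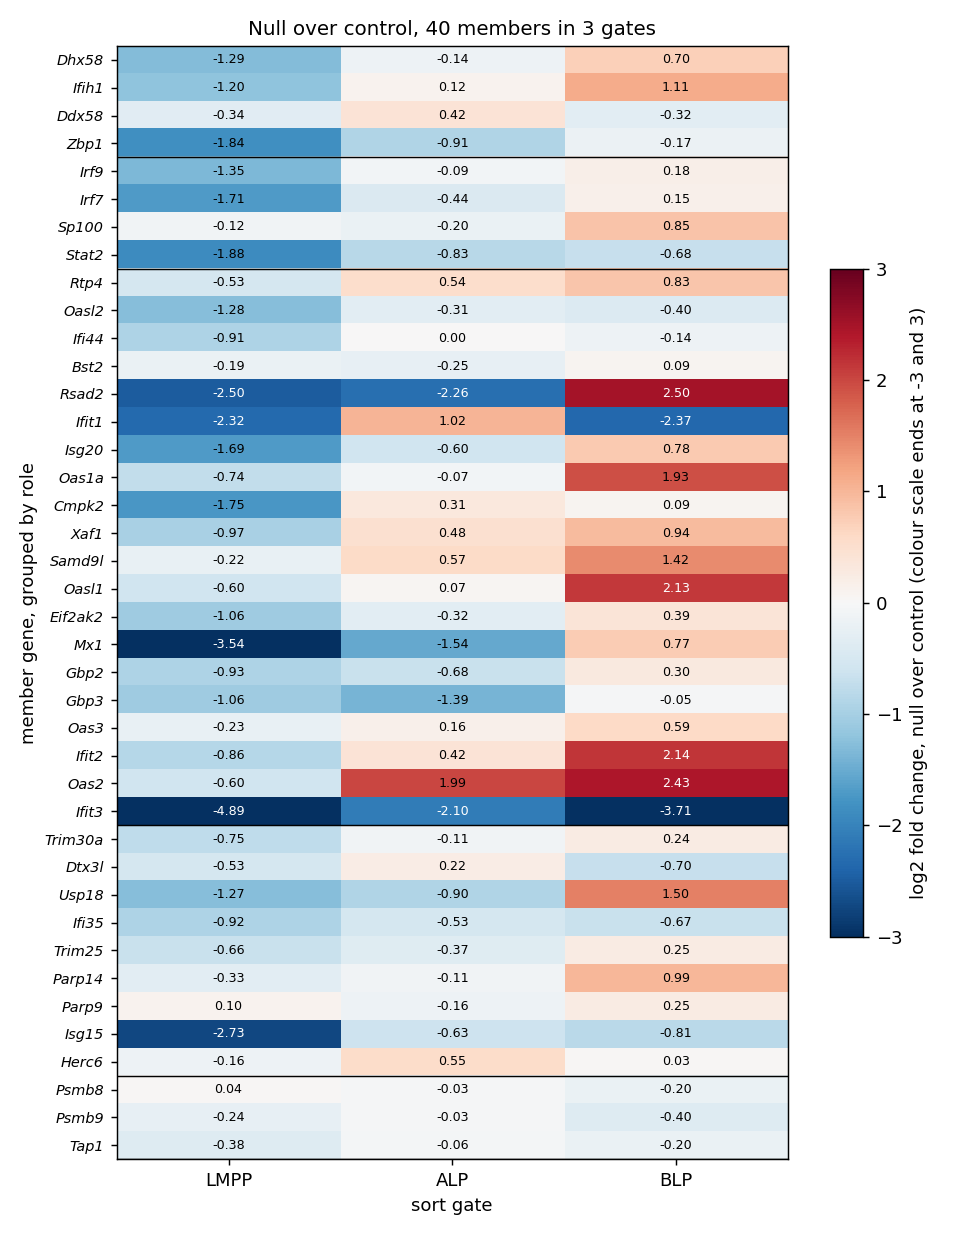
Log2 fold change of null over control for each of the 40 members (rows, grouped by role) in LMPPs, ALPs and BLPs (columns), from edgeR with 2 mice per group, in blue below 0 and red above. The LMPP column is below 0 in 38 of 40 rows, the ALP column in 26 and the BLP column in 14.

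The test of the difference between gates is the interaction of genotype and gate. The genotype change in LMPPs minus that in ALPs was below 0 in 35 of 40 members, with a median of -0.76 beside -0.03 over all genes. No member was called (0 of 40 by edgeR), beside 0% of all genes. Irf9 and Oas2 had the smallest p, with differences of -1.26 ± 0.37 and -2.60 ± 0.79 (SE; edgeR adjusted p = 0.94 for both). The change in LMPPs minus that in BLPs was below 0 in 36 of 40 members, with a median of -1.27 beside -0.01 over all genes. Again 0 members were called by edgeR, beside 0% of all genes. At an unadjusted p under 0.05, 14 members were below 0 and 0 above, against 3.62% of all genes below. Irf9 differed by -1.52 ± 0.37, Oas2 by -3.03 ± 0.79, Oas1a by -2.67 ± 0.72 and Mx1 by -4.31 ± 1.25 (SE; edgeR adjusted p = 0.71 to 0.72). Without the 3 highest cells of each library that count of 14 was 4, beside 6.78% of all genes in either direction. The count was also lower without null mouse 18217, null mouse 18219 or control mouse 18218, in fits that leave 1 mouse in a genotype. DESeq2 called Irf9, Oas2, Oas1a and Mx1, no other member, and 2.34% of all genes. Both differences use the same LMPP libraries. Without the 3 highest cells of each library the medians were -0.39 and -0.68. Without control mouse 18218 the first was -0.23, with 23 of 40 members below 0.

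With the cells of all gates summed per mouse, 30 of 40 members had a log2 fold change of null over control below 0, with a median of -0.26, beside 50.2% over all genes. edgeR called 0 members and 0% of all 21047 genes tested in that fit. At an unadjusted p under 0.05, 10 members were lower and 0 higher, against 3.7% of all genes lower. Those with the smallest p were Irf7, Isg15, Mx1 and Ifit3, with log2 fold changes of -0.71 ± 0.14, -1.48 ± 0.31, -1.66 ± 0.36 and -3.23 ± 0.72 (SE; edgeR adjusted p = 0.53 for each). DESeq2 called 7 members, which were those 4 with Rsad2, Isg20 and Stat2, beside 3.2% of all genes. Without the 3 highest cells of each library the count of 10 was 4, counted in either direction, beside 6.93% of all genes. These sums hold the LMPP cells and are not separate evidence.

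Along the gates of control mice most members had lower values in the later gate, without passing the test. From the LMPP to the ALP gate, 34 of 40 had a log2 fold change of ALP over LMPP below 0, with a median of -0.70 beside 0.00 over all genes. In 19 members both mice had less in ALPs than either had in LMPPs, against 19.9% of all genes. edgeR called 0 members and 0.271% of all genes, and 5 members were lower at an unadjusted p under 0.05, against 3.82% of all genes. Without the 3 highest cells of each library the count of 5 was 3, counted in either direction. Of all genes 8.59% passed there, a share near that of the members. The count was lower without mouse 18218 and higher without mouse 18220, in fits that leave 1 control mouse. DESeq2 called Samd9l, Oasl2 and Isg20, 3 of 40 members, and 5.23% of all genes. Samd9l, a restriction factor that also limits growth of blood cells, had 10.3 and 20.5 CPM in control ALPs, against 119 and 69.1 CPM in control LMPPs. Its log2 fold change was -2.61 ± 0.62 (SE; edgeR adjusted p = 0.22). Oasl2 had 49.4 and 84.4 CPM in control ALPs, against 242 and 215 CPM in control LMPPs, and Isg20 had 11.9 and 38.5 CPM in control ALPs, against 145 and 76.0 CPM in control LMPPs. Irf9 had 138 and 179 CPM in control ALPs, against 289 and 306 CPM in control LMPPs. Of the antigen processing genes Psmb8 went the other way, with 924 and 762 CPM in control ALPs, against 597 and 645 CPM in control LMPPs, and so did Tap1, with 386 and 326 CPM in control ALPs, against 286 and 285 CPM in control LMPPs. Neither overlapped between gates. This step uses the control LMPP libraries that also enter the comparison of genotypes in LMPPs. The size of the step differed between the control mice. Without mouse 18218 the median was -0.01 with 21 of 40 members below 0, and without mouse 18220 it was -1.61. In ALPs of mouse 18220 the 3 cells with most member reads held 34.3% of them, against 12.5% in mouse 18218. Without the 3 highest cells of each library, the mean summed level per cell was 3811 and 3892 CPM in control LMPPs. In control ALPs it was 3389 and 3233 CPM.

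From ALPs to BLPs in control mice 34 of 40 members were again below 0, with a median of -0.68. Both mice had less in BLPs than either in ALPs in 17 members, against 19.8% of all genes. edgeR called 0 members and 0.00502% of all genes, and 10 members were lower at an unadjusted p under 0.05, against 4.04% of all genes. DESeq2 called 6, which were Oas1a, Sp100, Rsad2, Oasl2, Usp18 and Ifit1, beside 3.38% of all genes. Without the 3 highest cells of each library the count of 10 was 3, counted in either direction. Of all genes 7.12% passed there, a share near that of the members. The count was lower without mouse 18220 and higher without mouse 18218, in fits that leave 1 control mouse. Oas1a had 15.7 and 9.23 CPM in control BLPs, against 40.5 and 72.4 CPM in control ALPs, and Sp100 had 103 and 122 CPM in control BLPs, against 162 and 293 CPM in control ALPs. Rsad2 had 0.319 and 1.27 CPM in control BLPs, against 5.38 and 47.4 CPM in control ALPs, and Oasl2 had 28.7 and 14.4 CPM in control BLPs, against 49.4 and 84.4 CPM in control ALPs. The ALP value of Rsad2 in mouse 18220 includes the cell with 35 members, and the median of this step was -0.24 without mouse 18220 and -1.21 without mouse 18218. Psmb9, Bst2, Tap1 and Dtx3l were above 0, at 0.29, 0.24, 0.11 and 0.05.

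In null mice the first step had no common direction across the members. From LMPPs to ALPs 16 of 40 members were below 0, with a median of 0.04, and edgeR called 0 members and 0.211% of all genes, with 1 member at an unadjusted p under 0.05, beside 8.78% of all genes. This was Samd9l, with 24.3 and 21.5 CPM in null ALPs, against 66.5 and 94.6 CPM in null LMPPs, and DESeq2 called it and 5.27% of all genes. The difference between genotypes in this step is the interaction given above, in which no member passed. From ALPs to BLPs 29 of 40 were below 0, with a median of -0.17, and edgeR called 0 members and 0% of all genes, with 3 members at an unadjusted p under 0.05, beside 6.4% of all genes, a share near that of the members. Oasl2 had 19.9 and 12.7 CPM in null BLPs, against 65.3 and 42.6 CPM in null ALPs, and Dtx3l had 52.1 and 73.7 CPM in null BLPs, against 122 and 108 CPM in null ALPs. Ifit1, the third, had 0.0187 and 0.152 CPM in null BLPs, against 15.2 and 26.7 CPM in null ALPs. DESeq2 called all 3, beside 2.6% of all genes. Without null mouse 18217, 17 of 40 members were below 0 in this step.

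The rest of the pathway was read from 5 lists, and edgeR called 0 of their genes between genotypes in any gate. The lists hold genes other than the members. No interferon gene passed the filter on low counts (0 of 21). Of 11 receptor and Jak-Stat genes 7 were below 0 in null LMPPs, with a median of -0.19. Ifngr2, a chain of the receptor for interferon gamma, had 6.47 and 17.4 CPM in null LMPPs, against 23.4 and 25.4 CPM in control LMPPs. Of 8 inhibitors 3 were below 0, with a median of 0.09, and 2 were higher at an unadjusted p under 0.05. Cish, an inhibitor of cytokine receptor signalling, had 20.1 and 83.6 CPM in null LMPPs, against 9.25 and 12.8 CPM in control LMPPs. Socs3, another, had 19.4 and 19.6 CPM in null LMPPs, against 3.93 and 2.02 CPM in control LMPPs. Their log2 fold changes were 2.23 ± 0.62 and 2.71 ± 0.78 (SE; edgeR adjusted p = 0.65 and 0.68). Of 14 tested upstream sensors and adaptors 9 were below 0. Aim2, a sensor of cytosolic DNA, had 12.5 and 14.7 CPM in null LMPPs, against 51.0 and 40.6 CPM in control LMPPs.

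Of 70 tested genes in a list of other interferon-induced genes, 67 were below 0 in null LMPPs, with a median of -0.56. In 39 both null mice lay below both control mice and in 1 above, beside the 17.8% lower and 16.2% higher of all genes. The list was chosen with earlier results of these data known and uses the same LMPP libraries, so it is not separate evidence. Igtp, an immunity-related GTPase, had 17.2 and 46.5 CPM in null LMPPs, against 149.5 and 118 CPM in control LMPPs. Ifitm3, a membrane protein that blocks viral entry, had 604 and 619 CPM in null LMPPs, against 879 and 855 CPM in control LMPPs. In ALPs 49 of 70 and in BLPs 33 of 70 were below 0. Between ALPs and LMPPs of control mice edgeR called 3 of the list, which were Ifitm1, Ifitm2 and Ifitm3, with log2 fold changes of -4.32, -2.16 and -1.95.

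Markers of other cells were summed beside the members in LMPPs. The 12 monocyte and macrophage genes had 141 and 111 CPM in null LMPPs, against 149.8 and 92.6 CPM in control LMPPs, with overlapping mice. Their defining genes Adgre1, C1qa, C1qc and F13a1 were at 0.444 CPM or less in each LMPP library. The 10 plasmacytoid dendritic cell genes had 459.7 and 670.3 CPM in null LMPPs, against 625 and 504 CPM in control LMPPs, also overlapping, and Siglech was at 4.88 CPM or less. The 9 neutrophil and granulocyte genes had 1123 and 1538 CPM in null LMPPs, against 578 and 681 CPM in control LMPPs, and both null mice lay above, mostly by Mpo, while Elane, Ngp, Camp and Ltf were at 1.60 CPM or less. Of the 5 tested genes of this list, 3 had a log2 fold change of null over control below 0 and 2 above, with a median of -1.66. The 8 stem and multipotent genes had 2136 and 2706 CPM in null LMPPs, against 2265 and 2367 CPM in control LMPPs, and the 6 gate genes had 1689 and 2112 CPM in null LMPPs, against 2363 and 2285 CPM in control LMPPs. For the gate genes both null mice lay below. The 10 B lineage genes had 200.3 and 200.5 CPM in null LMPPs, against 177 and 112 CPM in control LMPPs, with both null mice above. The 7 mature B and plasma cell genes had 179.7 and 219 CPM in null LMPPs, against 303 and 217 CPM in control LMPPs, and the 10 T and NK cell genes had 362 and 365 CPM in null LMPPs, against 326 and 457 CPM in control LMPPs, with overlapping mice in both sums. Every listed marker had a read in at least 1 library. Their part in the values of the members was not tested.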

How the data were processed

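Single cells of 12 groups of mouse and gate were sorted 1 per well and sequenced after full-length amplification without molecular identifiers. The deposited table holds raw counts per gene, made by the authors with GSNAP and HTSeq 0.5.3p3 on mm10, as listed in the submitters' processing notes. Which annotation and strand setting were used, and whether reads were paired, is not given in the labels or headers. The 92 spike-ins and 5 summary entries were kept out of library sizes and tests. The limits on cells were 50000 nuclear gene counts and 1000 nuclear genes as minimum, and 20% mitochondrial and 50% spike-in counts as maximum. No 2 of the 672 columns were identical.

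Counts of kept cells were summed per mouse and gate, since the mouse is the replicate. The 12 libraries were fitted in 1 model of 6 groups with edgeR 4.0.16 (R 4.3.3; TMM, filterByExpr with a minimum count of 10, quasi-likelihood test, 6 residual degrees of freedom), with Benjamini-Hochberg adjustment over 19903 genes and a threshold of 0.05. A standard error is the size of the log2 fold change divided by the square root of F. The edgeR steps were run on simulated data. Recovery of known changes was required only at a biological coefficient of variation smaller than the 86.9% of these data. That check concerns the steps and not the power reached here. A fit of 4 libraries summed per mouse had 2 residual degrees of freedom. Shares of cells came from a seeded draw of 50000 gene counts per cell. Level per length is CPM divided by the length of the joined exons in the annotation given, which the authors did not necessarily use. Promoters are RefSeq windows of GRCm38.p6. All samples of a mouse come from that animal, and libraries of 1 mouse had correlations of 0.0341 to 0.0694 in their deviations from the group means.

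Alternatives were edgeR with other size factors, other filters on genes and cells, DESeq2 1.42.0, limma-voom (limma 3.58.1), thinned cells, mean log2(CPM + 1), shares of cells, each mouse left out, only the libraries of a gate, and the mouse as a block. Leaving out the 3 highest cells per library and the batch term for the column layout were added after the data were seen. Members and lists were chosen with earlier results of these data known. Named members are those whose mice do not overlap with a control mean of at least 20 CPM (up to 12 in LMPPs, 4 in ALPs and in BLPs, by smallest p), the 8 highest per kilobase and up to 4 per direction in each comparison. Others named, such as Usp18, Rsad2, Ifit1 and Sp100 in LMPPs, illustrate a role or the part of single cells and were chosen after their values were seen.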

Additional observations from a re-analysis of the deposited data

Results flagged for a closer look

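Some members had both null mice below both control mice in LMPPs and above both in another gate, which set them apart for a second look at the difference between gates. Of all genes 17.8% lay lower in LMPPs, 17.1% higher in ALPs and 16.3% higher in BLPs, each with mice not overlapping. The share of all genes with both orders is not given, so the number of these members is not read as a result. The genotype change in LMPPs minus that in ALPs was -0.76 for Ddx58, -1.07 for Rtp4 and -1.45 for Xaf1, on the log2 scale. The change in LMPPs minus that in BLPs was -4.31 for Mx1, -2.67 for Oas1a, -5.00 for Rsad2, -2.47 for Isg20, -1.92 for Xaf1 and -2.77 for Usp18. None of these 9 differences passed edgeR's interaction test (adjusted p = 0.71 to 1.00). DESeq2 called Mx1 and Oas1a between LMPPs and BLPs, beside 2.34% of all genes. These members were picked by the same libraries that the test uses, so the calls are not separate evidence. In BLPs Mx1 had 18.3 and 18.1 CPM in null BLPs, against 8.21 and 13.2 CPM in control BLPs. Rsad2 had 3.20 and 5.82 CPM in null BLPs, against 0.319 and 1.27 CPM in control BLPs, and Isg20 had 13.9 and 16.3 CPM in null BLPs, against 12.9 and 4.67 CPM in control BLPs.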

How the results depend on the processing

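No member passed the threshold in any comparison under edgeR with other size factors, a minimum mean of 10 CPM, all cells, deeper cells or a batch term for the layout of the columns. Of the medians and of the counts of members below 0, those in LMPPs kept their direction under every alternative run. DESeq2 put members past the threshold, with 2 in LMPPs, 1 in ALPs, 2 in BLPs, 7 summed per mouse, 3 and 6 for the control steps to ALPs and to BLPs, 1 and 3 for the null steps, and 4 for LMPPs minus BLPs. Over all genes DESeq2 called 1.51 to 5.27% in these comparisons. For the control step to ALPs, 1 member passed without a filter (Samd9l), 1 with thinned cells and 1 with limma-voom (both Oasl2), and 2 with mean log values (Ifih1 and Samd9l). In that order, these settings called 0.515%, 1.3%, 0.482% and 1.24% of all genes. Without the 3 highest cells of each library the medians were -0.36 in LMPPs, -0.39 for LMPPs minus ALPs and -0.68 for LMPPs minus BLPs, and 16 members were below 0 in ALPs. In ALPs 17 members were below 0 with thinned cells and 17 by the share of cells. By mean log values the median for LMPPs minus BLPs was -0.81. Some members turned direction. Eif2ak2 in LMPPs was higher in null by 2.93 percentage points of cells, Dtx3l in BLPs by 1.26 points, and Irf7 summed per mouse by 2.26 points and by 0.16 in mean log2 value. The cause of these moves was not tested.

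Leaving out 1 mouse at a time, the medians ran -1.26 to -0.63 in LMPPs, -0.36 to 0.34 in ALPs, 0.03 to 0.53 in BLPs, -0.41 to -0.24 summed per mouse, -1.61 to -0.01 and -1.21 to -0.24 for the control steps, -0.01 to 0.20 and -0.53 to 0.16 for the null steps, -1.46 to -0.23 for LMPPs minus ALPs and -1.50 to -0.86 for LMPPs minus BLPs. Members below 0 ran 32 to 40 in LMPPs, 10 to 27 in ALPs, 13 to 20 in BLPs, 28 to 34 summed per mouse, 21 to 35 and 27 to 34 for the control steps, 16 to 20 and 17 to 30 for the null steps, 23 to 38 and 31 to 36 for the differences. Such fits leave a genotype with 1 mouse per gate, which is assumed to vary like the other groups. With the mouse as a replicate block, the medians were -0.76 and -0.85 for the control steps and -1.42 for LMPPs minus BLPs, and 0 members passed with or without the pairing. Over all genes the calls came to 32 with the block and 54 without it for the control step to ALPs and to 22 with the block and 42 without it for the null step. Between genotypes no paired analysis was possible because each mouse has 1 genotype. With 2 mice per genotype and a biological coefficient of variation of 86.9% in the 12 libraries, the number of mice limits the precision of these comparisons.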

Other observations

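Cxcl10, a chemokine induced by interferon gamma and by type I interferon, was chosen after its values were seen. It had 0.633 and 0 CPM in null LMPPs, against 228 and 0 CPM in control LMPPs, so 1 control mouse held nearly all of it. In ALPs it had 0.666 and 0 CPM in null ALPs, against 0.226 and 4.51 CPM in control ALPs.

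Reads of the interferon genes themselves were few. Of 21 such genes 9 had a read, with 108 reads in 16 of 561 cells, and 87 of the reads were of Ifna4 in 3 cells. The interferon genes summed to 0.0539 CPM or less in each LMPP library.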
